A study of Arabidopsis thaliana with 24 samples.

Results

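The acidic stalk proteins of the cytosolic ribosome were followed at the transcript level in Arabidopsis thaliana. The set holds 10 loci of the 37184 counted in every library, listed by locus number: 3 genes of P0 (AT2G40010, AT3G09200 and AT3G11250), 3 genes of P1 (AT1G01100, AT4G00810 and AT5G47700) and 4 genes of P2 (AT2G27710, AT2G27720, AT3G28500 and AT3G44590). The family was picked with earlier results of these data known, so the choice was not independent of the measured values. The reference annotation names the P0 genes as members of the ribosomal protein L10 family and the P1 and P2 genes as members of the 60S acidic ribosomal protein family, which fits the label. The libraries came from plants of 21 days, grown on soil in long days, and were made by 3' RNA-seq, in which reads start from oligo(dT) primers and a count therefore stands for a transcript end. There were 6 genotypes with 4 libraries each.

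The mut_dN line carried 35S::DXO1(ΔN194/E394A/D396A), a DXO1 protein without its first 194 residues and with both catalytic substitutions. The wt_dN line carried 35S::DXO1(ΔN194), the same truncation without the substitutions. The mut line carried the full-length protein with the substitutions, 35S::DXO1(E394A/D396A), and the wt line carried the unaltered protein, 35S::DXO1. All 4 transgenes were in the dxo1-2 mutant background, so the lines share that mutation with the dxo1-2 plants themselves, and Col-0 was the wild type. The transgenes were driven by the strong and broadly active 35S promoter and not by the promoter of DXO1. The labels give 1 line for each construct, so a construct cannot be told apart from the line that carries it. They also do not say whether the 4 libraries of a genotype came from separate plants or pools, so p-values measure the spread between these libraries. DXO1 is a plant relative of the DXO enzymes, which remove incomplete caps from RNA.

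The stalk is a flexible arm on the large ribosomal subunit. P0 (uL10) sits on the ribosomal RNA next to uL11 and carries dimers of the small acidic proteins P1 and P2, and plants have a further kind, P3. The acidic C-terminal tails of these proteins bind the translation factors that hydrolyse GTP, among them eEF1A and eEF2, and bring them to the ribosome. The members differ in role: P0 is the anchor, and P1 and P2 are the exchangeable parts.

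The end of the reading frame, which encodes that tail, is shown first because it is the feature that makes these genes a family and because 3' reads have to tell such similar genes apart. Each line gives the last 13 codons before the stop codon, 39 bases, 5' to 3', from the RefSeq annotation of TAIR10.1, with capitals for bases shared by all members of the same class. The 3 P0 genes, anchors of the stalk, share 17 of the 39 bases:
AT2G40010: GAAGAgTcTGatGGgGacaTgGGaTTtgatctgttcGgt
AT3G09200: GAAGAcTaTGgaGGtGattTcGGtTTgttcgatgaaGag
AT3G11250: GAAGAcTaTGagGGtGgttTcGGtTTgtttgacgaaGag
The 3 P1 genes share 32 of 39 bases in the same stretch:
AT1G01100: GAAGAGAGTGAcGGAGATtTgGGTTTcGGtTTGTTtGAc
AT4G00810: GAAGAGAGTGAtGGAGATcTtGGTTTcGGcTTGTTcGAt
AT5G47700: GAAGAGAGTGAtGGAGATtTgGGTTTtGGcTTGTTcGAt
The 4 P2 genes share 19 of 39 bases, and AT3G28500 is the one that departs most from the others:
AT2G27710: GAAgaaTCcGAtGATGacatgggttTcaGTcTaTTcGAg
AT2G27720: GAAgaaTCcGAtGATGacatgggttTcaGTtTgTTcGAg
AT3G28500: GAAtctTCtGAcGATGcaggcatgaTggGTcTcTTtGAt
AT3G44590: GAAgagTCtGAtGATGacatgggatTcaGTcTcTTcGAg
In aligned coding sequence, AT1G01100 and AT5G47700 were 93.2% identical over 339 bases, AT2G27710 and AT2G27720 were 91.4% identical over 348 bases, and AT3G09200 and AT3G11250 were 89.7% identical over 960 bases. The coding sequence of AT2G27720 is 393 bases long, so part of it lies outside that alignment. In the last 200 bases of the annotated transcript, where 3' reads are expected, the longest run shared by 2 members of a class was 19 bases, between AT2G27710 and AT2G27720. Farther up, the same pair shared a run of 55 bases. How reads that match several genes were counted is not given in the sources used here, so a split of counts between these 2 genes is less certain than their sum. They are also neighbours: AT2G27710 (chromosome 2, 11816634 to 11817972) and AT2G27720 (11818230 to 11819646) lie on the plus strand with 257 bases between them.

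The members move together in several comparisons, so their upstream sequence was read for 2 motifs that are common in plant ribosomal protein promoters: the telo box AAACCCTA and the site II element TGGGCC or TGGGCT, on both strands. In the 250 bases before the outermost annotated start, 7 of the 10 members (70.0%) held a site II element, against 19.2% of 27443 protein-coding genes and 60.5% of 81 other genes named as large-subunit ribosomal proteins. The telo box was in 1 member (10.0%), against 4.49% of protein-coding genes and 22.2% of the same large-subunit genes. The count depended on the start used: over the same length before any annotated start, 8 members held a site II element and 6 held a telo box, against 21.3% and 5.92% of protein-coding genes. Genes with more annotated transcripts had more windows to search, and AT1G01100, AT2G27710 and AT2G27720 have 4 transcripts each. The number of transcripts was not matched, and other ribosomal protein genes were not counted in this way. Below, 4 promoters are shown in lower case with these motifs in capitals. They are the P0 gene whose levels stood apart from the rest, the P1 gene with the most site II elements, the single gene with a telo box, and a P2 gene with neither motif in this window:
AT3G09200 (chr3:2825242-2825491, minus strand): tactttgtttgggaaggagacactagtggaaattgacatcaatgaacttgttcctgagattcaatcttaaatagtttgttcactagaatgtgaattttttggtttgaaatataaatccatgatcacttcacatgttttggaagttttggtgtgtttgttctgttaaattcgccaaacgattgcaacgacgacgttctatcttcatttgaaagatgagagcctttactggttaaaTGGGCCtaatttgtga
AT1G01100 (chr1:51211-51460, minus strand): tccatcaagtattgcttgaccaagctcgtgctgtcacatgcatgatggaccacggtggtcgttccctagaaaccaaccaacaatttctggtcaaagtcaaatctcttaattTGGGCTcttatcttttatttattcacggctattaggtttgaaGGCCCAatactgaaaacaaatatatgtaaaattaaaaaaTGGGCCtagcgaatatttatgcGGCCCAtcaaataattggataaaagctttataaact
AT4G00810 (chr4:347294-347543, minus strand): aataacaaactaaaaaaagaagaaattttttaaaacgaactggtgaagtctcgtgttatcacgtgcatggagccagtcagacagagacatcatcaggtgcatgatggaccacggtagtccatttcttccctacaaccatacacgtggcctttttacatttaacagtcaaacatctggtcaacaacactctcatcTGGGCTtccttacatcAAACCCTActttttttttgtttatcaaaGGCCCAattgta
AT2G27710 (chr2:11816384-11816633, plus strand): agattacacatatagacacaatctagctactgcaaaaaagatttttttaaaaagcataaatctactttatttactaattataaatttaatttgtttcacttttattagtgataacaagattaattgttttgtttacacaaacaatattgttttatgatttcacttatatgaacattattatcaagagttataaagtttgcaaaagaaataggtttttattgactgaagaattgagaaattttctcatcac
AT1G01100 held 4 site II elements and AT4G00810 held 2 with its telo box. AT3G09200 held 1, and its window lies inside the neighbouring gene AT3G09210. AT2G27710, AT2G27720 and AT3G44590, all of them P2 genes, held neither motif in this window.

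Total counts ran from 1270033 to 3490594 per library, and 16641 to 19273 loci had at least 1 count. Levels are given in CPM, counts scaled to a common library size with TMM factors and not divided by gene length, so shares of a class and ratios between classes are of counts. DXO1 (AT4G17620) averaged 5.14 ± 1.71 CPM in mut_dN, 4.45 ± 1.77 CPM in wt_dN, 18.4 ± 2.43 CPM in mut, 12.1 ± 1.24 CPM in wt, 3.36 ± 0.645 CPM in dxo1-2 and 15.6 ± 2.97 CPM in Col-0 (SD, n = 4 each). In both truncated lines DXO1 counts were not called different from those of dxo1-2, with log2 fold changes of 0.67 in mut_dN and 0.40 in wt_dN, and whether the transgenes keep the 3' end of the gene is not given in the labels. The truncation therefore cannot be told apart from the low DXO1 transcript count of these lines. Summed leaf mesophyll markers, 6 genes, reached 46700 to 54490 CPM in dxo1-2 and 55310 to 72130 CPM in Col-0. Although the labels name seedlings, 5 root markers summed to at most 1.87 CPM and 5 flower markers to at most 4.58 CPM in any library, with 1 gene of each list at 0 everywhere. In bulk samples, fewer cells of a type and less RNA per cell cannot be told apart.

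In dxo1-2 plants, transcripts of all 3 P1 genes and of the 3 measurable P2 genes were higher than in Col-0, and none of the P0 genes passed the test. A gene was called when its adjusted p was under 0.05 in edgeR's quasi-likelihood test with Benjamini-Hochberg adjustment over 13592 genes, and all adjusted p-values given here are of this kind. Of the 9 members tested, 6 were called higher and 0 lower, while 14.7% of all tested genes were called higher. The median log2 fold change was 0.91 over the 9 members and 0.02 over all tested genes. AT3G28500, with 0 to 4 counts in any library, fell below the filter on low counts and was not tested. The size of these changes depended on the processing and on 1 library. Libraries differed in how counts depended on exon length, and with this length trend removed the median of the members was 0.53 and 5 members were called higher, beside 13.5% of all tested genes. The tested members are short, with 826 to 1477 exon bases against a median of 1734 over tested genes. The trend was fitted with the members included, so a technical trend and a real rise of short genes cannot be told apart. Without Col-0 replicate 3, the library with the lowest P1 and P2 levels of its group, 3 members were called higher, beside 11.6% of tested genes.

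**Figure D1:**
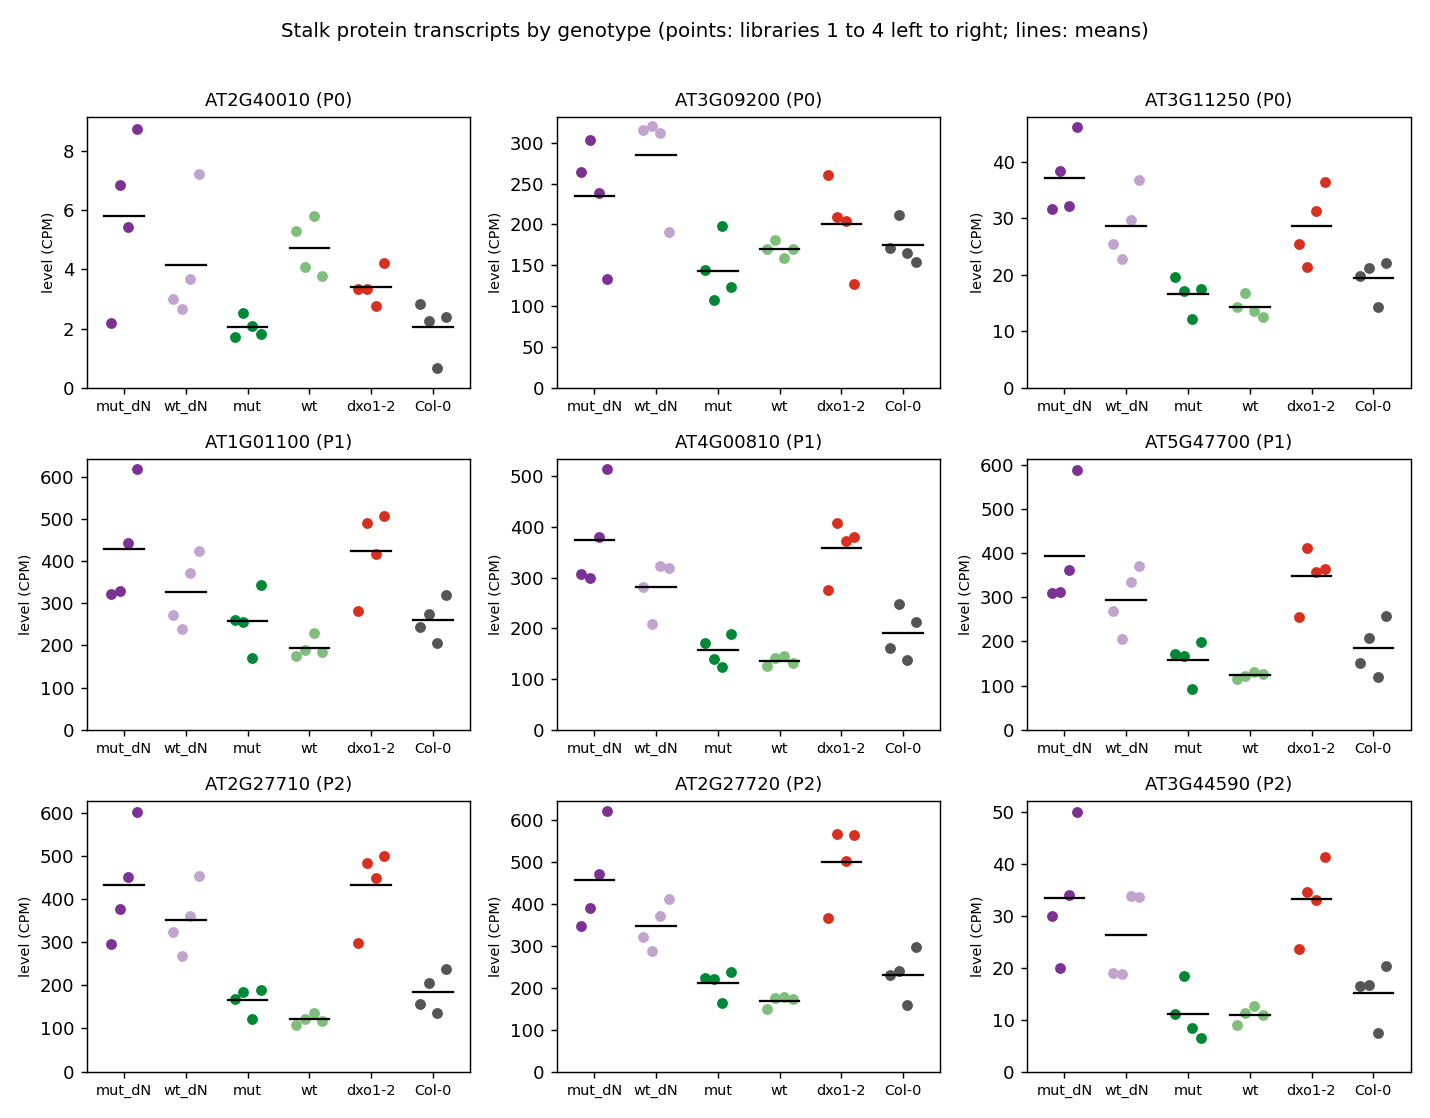
Level in CPM (linear axis from 0) of the 9 tested members in each genotype; points are libraries 1 to 4 from left to right and the line is the mean. P1 and P2 genes were high in dxo1-2 and in both truncated lines and low in wt, mut and Col-0, and AT3G09200 had its 2 highest means, 285 and 235 CPM, in wt_dN and mut_dN.

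AT3G09200, the P0 gene with 83.2% to 89.9% of the counts of its class in the group means, was measured at 260.5, 209, 204 and 127 CPM in dxo1-2 libraries 1 to 4, against 171, 212, 166 and 153.5 CPM in Col-0. The groups overlapped, and the log2 fold change did not pass the test, at 0.20 (SE 0.23, adjusted p = 0.601). The 95% interval ran from -0.26 to 0.65, and the estimates for the 6 called members lay above it. The intervals of AT1G01100 (0.23 to 1.16), AT4G00810, AT5G47700 and AT3G44590 overlapped it, and those of AT2G27710 and AT2G27720 did not. No test was made of AT3G09200 against the other members. Levels were 315, 321, 312 and 190.4 CPM in wt_dN, 265, 303, 238 and 133 CPM in mut_dN, 144, 107, 198 and 123 CPM in mut and 169.9, 181, 158 and 169 CPM in wt. The wt_dN line stood highest in 3 of its 4 libraries, and its replicate 4 was far lower.

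AT3G11250, another P0 gene, had 25.4, 21.3, 31.3 and 36.4 CPM in dxo1-2, against 19.9, 21.2, 14.3 and 22.1 CPM in Col-0, a log2 fold change of 0.55 (SE 0.22, adjusted p = 0.0716). It missed the threshold, and 1 dxo1-2 library lay inside the Col-0 range. It fell in both full-length lines: its levels were 19.6, 17.1, 12.1 and 17.4 CPM in mut and 14.2, 16.8, 13.7 and 12.6 CPM in wt, all below those of dxo1-2, with log2 fold changes over dxo1-2 of -0.80 (SE 0.23, adjusted p = 0.00904) in mut and -0.98 (SE 0.21, adjusted p = 9.38e-04) in wt. The mut call had an adjusted p of 0.0509 without mut replicate 3. AT2G40010, the third P0 gene, had only 1 to 23 counts per library and averaged 3.41 ± 0.606 CPM in dxo1-2 and 2.04 ± 0.941 CPM in Col-0. At this depth its log2 fold change of 0.66 (SE 0.48, adjusted p = 0.367) could not be told from 0. A lncRNA gene on the opposite strand, AT2G40008, overlaps AT2G40010 and had at most 0.46 CPM, and whether counting used strand is not given in the sources used here.

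The 3 P1 genes, whose proteins pair with P2 on the stalk, rose in dxo1-2. AT1G01100 had 280.5, 490.2, 417 and 506.5 CPM in dxo1-2, against 244.5, 274.5, 205 and 320.1 CPM in Col-0, with a log2 fold change of 0.70 (SE 0.24, adjusted p = 0.0329). The lowest dxo1-2 library, replicate 1, lay inside the Col-0 range. This was the weakest of the 6 calls: it was lost when any of 6 of the 8 libraries was left out, and with the length trend removed the fold change was 0.25 (adjusted p = 0.127). AT4G00810 had 275, 408, 371 and 380.5 CPM in dxo1-2, against 162, 248, 138 and 213 CPM in Col-0. Every dxo1-2 library was above every Col-0 library, and the log2 fold change was 0.91 (SE 0.20, adjusted p = 0.00134), or 0.47 with the length trend removed. AT5G47700 had 255, 412, 358 and 364 CPM in dxo1-2, against 151, 209, 119.9 and 257 CPM in Col-0. Only dxo1-2 replicate 1 lay below the highest Col-0 library, and the log2 fold change was 0.91 (SE 0.25, adjusted p = 0.00852). It was 0.53 with the length trend removed, and its adjusted p was 0.0508 without Col-0 replicate 3.

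The 3 tested P2 genes had the highest fold changes of the members. AT2G27710 had 298, 482, 449 and 499 CPM in dxo1-2, against 156, 205, 136 and 239 CPM in Col-0. The groups did not overlap, and the log2 fold change was 1.23 (SE 0.22, adjusted p = 1.38e-04). AT2G27720, its neighbour, had 366, 567.5, 503 and 564 CPM in dxo1-2, against 230.3, 239.7, 159 and 298 CPM in Col-0. These groups did not overlap either, and the log2 fold change was 1.11 (SE 0.20, adjusted p = 1.31e-04). Both calls held without any 1 library, with adjusted p-values of at most 0.00155, and with the length trend removed the fold changes were 0.85 and 0.86. AT3G44590 had 23.7, 34.6, 33.1 and 41.4 CPM in dxo1-2, against 16.6, 16.6, 7.50 and 20.3 CPM in Col-0, again without overlap, and its log2 fold change was 1.09 (SE 0.32, adjusted p = 0.0126). It was 0.67 with the length trend removed, and the adjusted p was 0.0653 without Col-0 replicate 3. AT3G44600, a protein-coding gene on the opposite strand, overlaps the 3' end of AT3G44590 by 63 bases and had 0 to 13.6 CPM. AT3G28500 had 2 to 4 counts per dxo1-2 library and 0 to 1 in Col-0, too few to test. Its means were 1.59 ± 0.791 CPM in dxo1-2 and 0.118 ± 0.236 CPM in Col-0. Of all tested genes, 15.6% were higher in dxo1-2 with no overlap between the groups, and 4 of the 9 members were.

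**Figure D2:**
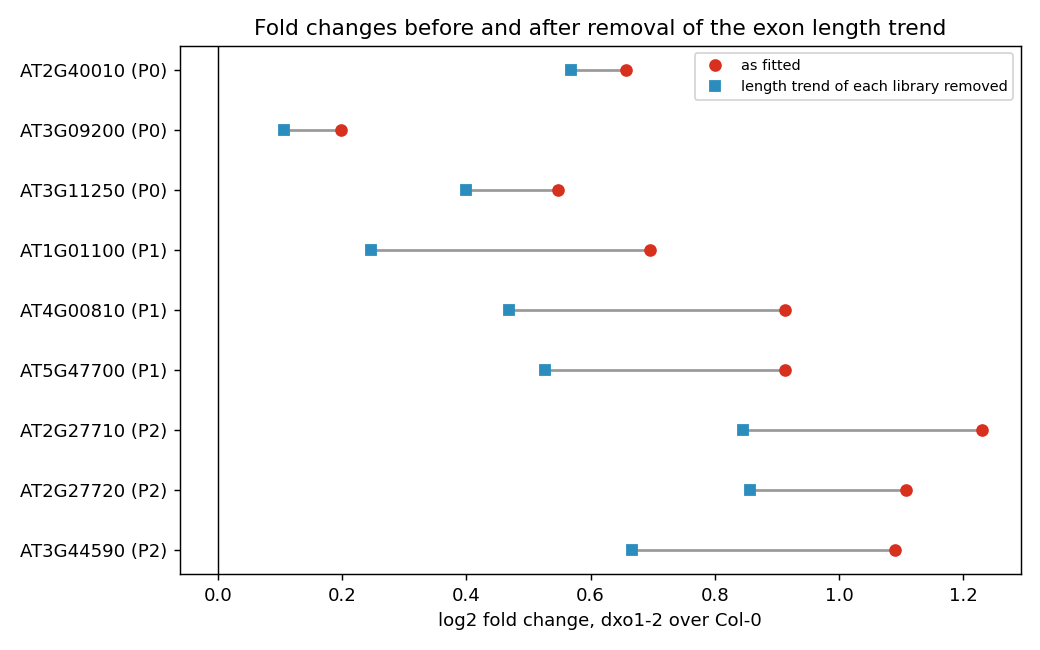
Log2 fold change of dxo1-2 over Col-0 for the 9 tested members, as fitted (circles) and with each library's dependence on exon length taken out (squares). All 9 values stayed above 0, AT1G01100 moved to 0.25, and the P2 genes AT2G27710 and AT2G27720 kept the highest values, 0.85 and 0.86.

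Most stalk transcripts were lower in both full-length lines than in dxo1-2. In the wt line 7 of the 9 members were lower than in dxo1-2, while 18.5% of all tested genes were called lower. In the mut line, with the catalytic substitutions, the same count was 7, while 15.1% of all tested genes were called lower. The exceptions in both were the P0 genes AT2G40010 and AT3G09200. In mut both had values below 0 without being called. AT3G09200 was at -0.48 there (95% interval -0.94 to -0.03, unadjusted p = 0.0485) and AT2G40010 at -0.67 (SE 0.49, adjusted p = 0.341). In wt AT3G09200 was at -0.24 (SE 0.23, adjusted p = 0.439) and AT2G40010 at 0.49 (SE 0.41, adjusted p = 0.374). The median log2 fold change of the members was -1.40 in wt and -1.15 in mut, against 0.04 and 0.03 over all tested genes. With the length trend removed these medians were -0.77 and -0.82, and 7 members were called lower in each comparison. In that fit 16% of all tested genes were called lower in wt and 14% in mut. These comparisons share the dxo1-2 libraries with each other and with the comparison to Col-0.

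AT2G27710 fell to 109, 121, 135.5 and 118 CPM in wt and 169, 185, 121.5 and 189.6 CPM in mut, and all 8 libraries lay below the lowest dxo1-2 library at 298 CPM. Its log2 fold changes over dxo1-2 were -1.83 (SE 0.22, adjusted p = 5.09e-07) in wt and -1.38 (SE 0.22, adjusted p = 3.61e-05) in mut. AT2G27720 had 149, 175, 177.5 and 173 CPM in wt and 223, 222, 164 and 237 CPM in mut, with log2 fold changes of -1.57 (SE 0.20, adjusted p = 1.03e-06) in wt and -1.24 (SE 0.20, adjusted p = 3.35e-05) in mut. The third tested P2 gene, AT3G44590, averaged 11.0 ± 1.53 CPM in wt and 11.1 ± 5.26 CPM in mut, with log2 fold changes of -1.57 (SE 0.31, adjusted p = 3.35e-04) in wt and -1.55 (SE 0.33, adjusted p = 9.19e-04) in mut.

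Among P1 genes, AT4G00810 had 125, 142, 145 and 131 CPM in wt and 171.5, 139.7, 124 and 189.6 CPM in mut, none of which reached the dxo1-2 range. Its log2 fold changes were -1.40 (SE 0.20, adjusted p = 7.29e-06) in wt and -1.20 (SE 0.20, adjusted p = 7.10e-05) in mut. AT5G47700 had 114, 123, 131 and 127 CPM in wt and 172, 166, 91.4 and 199 CPM in mut. The log2 fold changes of AT5G47700 were -1.49 (SE 0.25, adjusted p = 5.48e-05) in wt and -1.15 (SE 0.25, adjusted p = 0.00121) in mut. AT1G01100 had 174, 188, 229 and 184 CPM in wt and 260.2, 255, 169.9 and 343 CPM in mut. It fell by 1.13 on the log2 scale in wt (adjusted p = 6.17e-04) and by 0.72 in mut (adjusted p = 0.0242), where mut replicate 4 reached into the dxo1-2 range. The mut call of AT1G01100 was lost without mut replicate 2 or 3 or dxo1-2 replicate 2 or 4, with adjusted p-values up to 0.0906, and with the length trend removed its fold changes were -0.46 in wt and -0.36 in mut.

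In the lines without the N-terminal part, whose DXO1 counts were near those of dxo1-2, no member was called different from dxo1-2. In mut_dN 0 of 9 members were called against dxo1-2, while 0.795% of all tested genes were called in either direction, and 0 members had an unadjusted p under 0.05. Their log2 fold changes ran from -0.13 to 0.77. In wt_dN 0 of 9 were called, while 3.03% of all tested genes were called. There 2 members had an unadjusted p under 0.05: AT2G27720, at -0.52 (95% interval -0.90 to -0.14), and AT3G09200, at 0.50 (95% interval 0.05 to 0.95). DESeq2 called 0 members in both comparisons. A p that misses the threshold does not show equal levels: for AT2G27710 the interval was -0.42 to 0.42 in mut_dN and -0.72 to 0.13 in wt_dN. In wt_dN the outcome also depended on the spread that libraries share. Replicates of a group differed along a common axis that held 41.6% of the spread within groups. The axis was computed from the log2 levels of all tested genes, members included. With each library's place on this axis as a covariate, 4 members were called lower and 1 higher in wt_dN against dxo1-2. In that fit 15.4% of all tested genes were called lower and 11.9% higher.

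**Figure D3:**
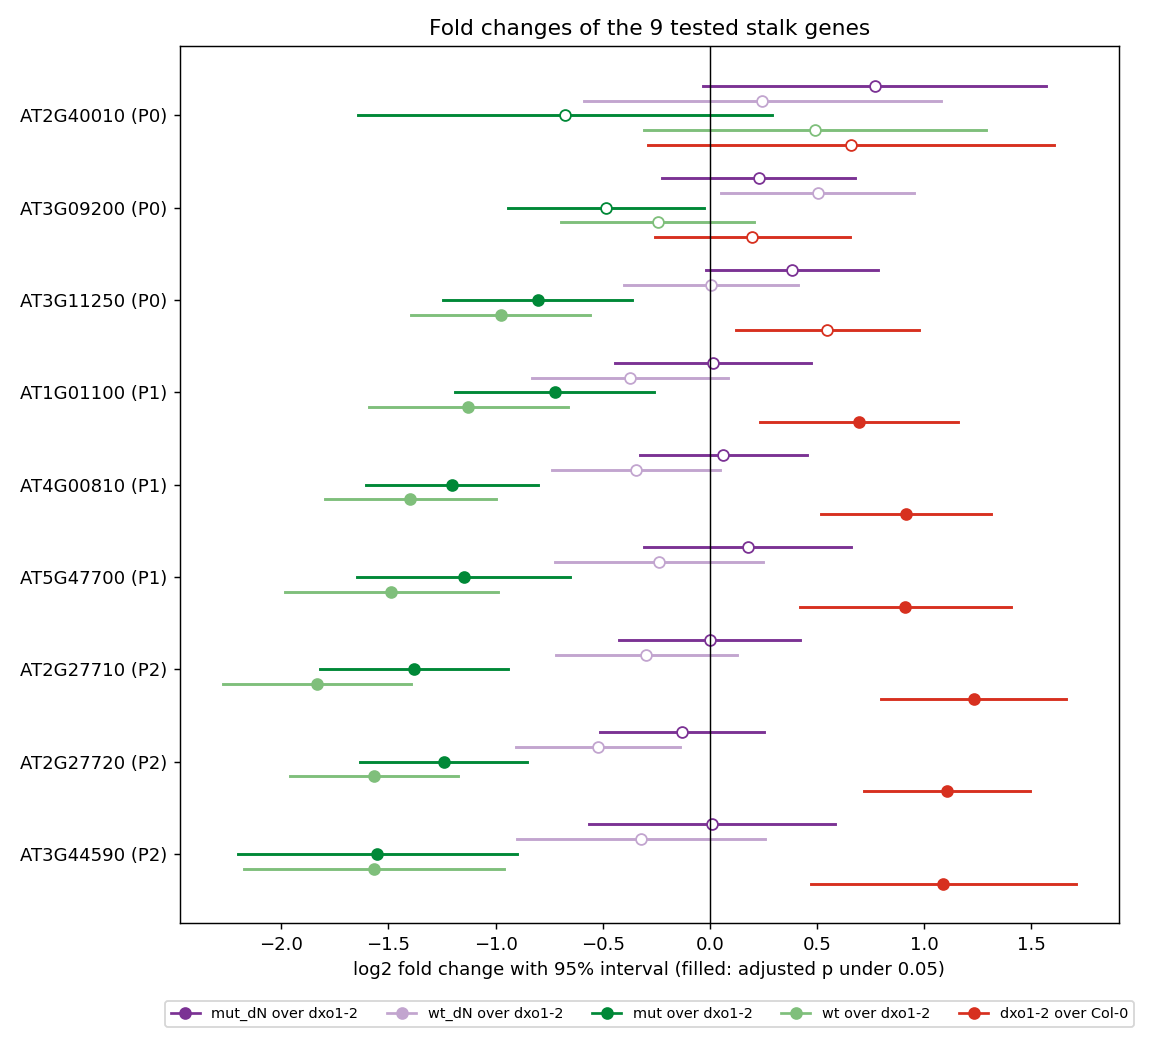
Log2 fold change with its 95% interval for the 9 tested members, in the 4 lines over dxo1-2 and in dxo1-2 over Col-0; filled points have an adjusted p under 0.05. The wt and mut lines lie left of 0 and dxo1-2 over Col-0 lies right of 0 for P1 and P2 genes, and intervals of the truncated lines include 0 except for AT3G09200 and AT2G27720 in wt_dN.

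Against Col-0, the truncated lines were high and the full-length lines were not called different. In mut_dN 8 of 9 members were higher than in Col-0, all but AT3G09200, while 17.6% of all tested genes were called higher. The median over the 9 members was 0.98, or 0.68 with the length trend removed. Of these calls, AT1G01100 was lost without mut_dN replicate 4, Col-0 replicate 1 or Col-0 replicate 3, AT3G44590 was lost without mut_dN replicate 4, and with the length trend removed AT1G01100 was at 0.26 (adjusted p = 0.1). In wt_dN 5 of 9 were higher, while 16.8% of all tested genes were called higher. Those 5 were AT3G09200, AT4G00810, AT5G47700, AT2G27710 and AT2G27720, and the median over the 9 members was 0.68. AT2G27710 had 295, 377, 452 and 602 CPM in mut_dN and 324, 268, 361 and 453 CPM in wt_dN, above all Col-0 libraries, and its log2 fold changes over Col-0 were 1.23 (SE 0.22, adjusted p = 1.04e-04) in mut_dN and 0.93 (SE 0.22, adjusted p = 0.00182) in wt_dN. The wt_dN count rested on few libraries: 1 member was called without Col-0 replicate 1, without Col-0 replicate 3 or without wt_dN replicate 3, and 2 without wt_dN replicate 4. In these fits 13.6% to 16.7% of all tested genes were called higher. Without Col-0 replicate 2 AT5G47700 was lost, and without wt_dN replicate 1 AT4G00810 was lost. It was 3 of 8 tested members in a fit of only these groups, where 17.4% of tested genes were called higher, and 8 with the shared axis as a covariate, where 23.7% were.

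AT3G09200 rose over Col-0 in wt_dN, at 0.70 (SE 0.23, adjusted p = 0.0234), and this call was lost without any of 6 of the 8 libraries. In mut_dN AT2G40010 rose by 1.43 (SE 0.45, adjusted p = 0.0173) on the log2 scale, with 2.20, 6.84, 5.44 and 8.74 CPM in mut_dN against 2.84, 2.27, 0.681 and 2.39 CPM in Col-0. The groups of AT2G40010 overlapped, and the call was lost without Col-0 replicate 3 or mut_dN replicate 2 or 4. In the mut line 0 of 9 members were called against Col-0, while 5.36% of all tested genes were called, and 0 members had an unadjusted p under 0.05. In the wt line 0 of 9 were called, while 1.03% of all tested genes were called, and DESeq2 called 0 in both. In wt, however, 5 members had an unadjusted p under 0.05, 4 of them P1 or P2 genes on the low side, and in a fit of only wt and Col-0 5 of 8 tested members were called lower, where 5.09% of 11869 tested genes were. The lowest of these was AT2G27710 at -0.60 (95% interval -1.04 to -0.17), where the highest wt library, at 135.5 CPM, was just under the lowest Col-0 library, at 135.6 CPM.

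Truncation was compared directly within each kind of protein. Among the proteins without substitutions, wt_dN over wt, 8 of 9 members were higher, all but AT2G40010, while 17.4% of all tested genes were called higher. Among the substituted proteins, mut_dN over mut, 9 of 9 were higher, while 17.6% of all tested genes were called higher. The median log2 fold changes of the members were 1.04 and 1.26, or 0.85 and 0.99 with the length trend removed. In wt_dN over wt the groups of all 8 called members did not overlap, while 16.1% of all tested genes were higher in wt_dN without overlap. AT2G27710 had the highest value there, 1.54 (SE 0.22, adjusted p = 5.13e-06), and in mut_dN over mut AT3G44590 had the highest, 1.56 (SE 0.33, adjusted p = 6.34e-04). AT3G09200 rose in both, by 0.75 in wt_dN over wt (adjusted p = 0.0146) and by 0.71 in mut_dN over mut (adjusted p = 0.0217), and the second of these calls was lost with the length trend removed (adjusted p = 0.0721) and without mut replicate 2 or 4 or mut_dN replicate 1 or 2. In mut_dN over mut the calls of AT1G01100, without mut replicate 3 or mut_dN replicate 4, and of AT2G40010, without mut_dN replicate 2 or 4, were also lost, and in wt_dN over wt AT1G01100 had an adjusted p of 0.0501 without wt_dN replicate 4.

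The catalytic substitutions made no called difference. In mut over wt 0 of 9 members were called, while 6.28% of all tested genes were called, and 1 member had an unadjusted p under 0.05. That member was AT2G40010, at -1.17 (95% interval -2.06 to -0.27), with 1.71, 2.54, 2.09 and 1.83 CPM in mut and 5.28, 4.07, 5.80 and 3.78 CPM in wt. In mut_dN over wt_dN 0 of 9 were called, while 2.11% of all tested genes were called, and 0 had an unadjusted p under 0.05. The test of whether truncation acted differently in the 2 kinds of protein, the interaction, also called 0 of 9 members, while 1.44% of all tested genes were called. In that test AT2G40010 had an unadjusted p under 0.05, with a log2 value of 1.69 (adjusted p = 0.191), and the other 8 values ran from -0.16 to 0.31. DESeq2 called 0 members in these 3 comparisons. With the shared axis as a covariate 3 members were called higher in mut over wt, where 14.6% of all tested genes were called higher, and 6 were called higher in mut_dN over wt_dN, where 14.7% were. This fit called more genes in every comparison.

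Ordered by mean, the 3 P1 genes and AT3G44590 had the sequence mut_dN, dxo1-2, wt_dN, Col-0, mut and wt from high to low, and AT2G27710 and AT2G27720 differed only in that dxo1-2 came before mut_dN. Neighbours within the upper group of mut_dN, dxo1-2 and wt_dN were not called different for any of these genes, nor were neighbours within the lower group of Col-0, mut and wt. The step between wt_dN and Col-0 was called for AT4G00810, AT5G47700, AT2G27710 and AT2G27720 and not for AT1G01100 or AT3G44590. Among the P0 genes, AT3G11250 differed from the order of the P1 genes only in that wt_dN came before dxo1-2. The other P0 genes departed further: AT3G09200 ran wt_dN, mut_dN, dxo1-2, Col-0, wt and mut, and AT2G40010 had wt in second place, after mut_dN.

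The counts were also summed over the members of each class. The P2 genes summed to 967 ± 193 CPM in dxo1-2 and 431 ± 107 CPM in Col-0, the P1 genes to 1129 ± 223 CPM in dxo1-2 and 636 ± 152 CPM in Col-0, and the P0 genes to 232 ± 50.0 CPM in dxo1-2 and 197 ± 26.5 CPM in Col-0 (SD, n = 4 each). In wt the sums were 301 ± 24.9 CPM for P2, 453 ± 38.5 CPM for P1 and 189 ± 10.1 CPM for P0. In wt_dN they were 727 ± 139 CPM for P2, 903 ± 208 CPM for P1 and 317 ± 55.4 CPM for P0. These sums are described and not tested.

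P2 counts per P1 count differed between dxo1-2 and Col-0 by more than the spread of the libraries. The ratio was 0.849, 0.8291, 0.86 and 0.885 in dxo1-2 libraries 1 to 4, against 0.724, 0.631, 0.651 and 0.705 in Col-0, with no overlap. It averaged 0.777 ± 0.0563 in mut_dN, 0.812 ± 0.0575 in wt_dN, 0.696 ± 0.0809 in mut and 0.665 ± 0.0208 in wt. The truncated lines thus lay nearer to dxo1-2 and the full-length lines nearer to Col-0, although mut ranged from 0.594 to 0.762 and overlapped both truncated lines, and mut_dN, from 0.718 to 0.838, overlapped Col-0. With the length trend removed the ratio was 0.903 ± 0.0531 in dxo1-2 and 0.66 ± 0.0495 in Col-0. P1 and P2 counts per P0 count varied more, at 5.18, 10.2, 8.95 and 14.1 in dxo1-2 and 4.97, 5.07, 4.24 and 7.57 in Col-0, and these ranges overlapped.

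**Figure D4:**
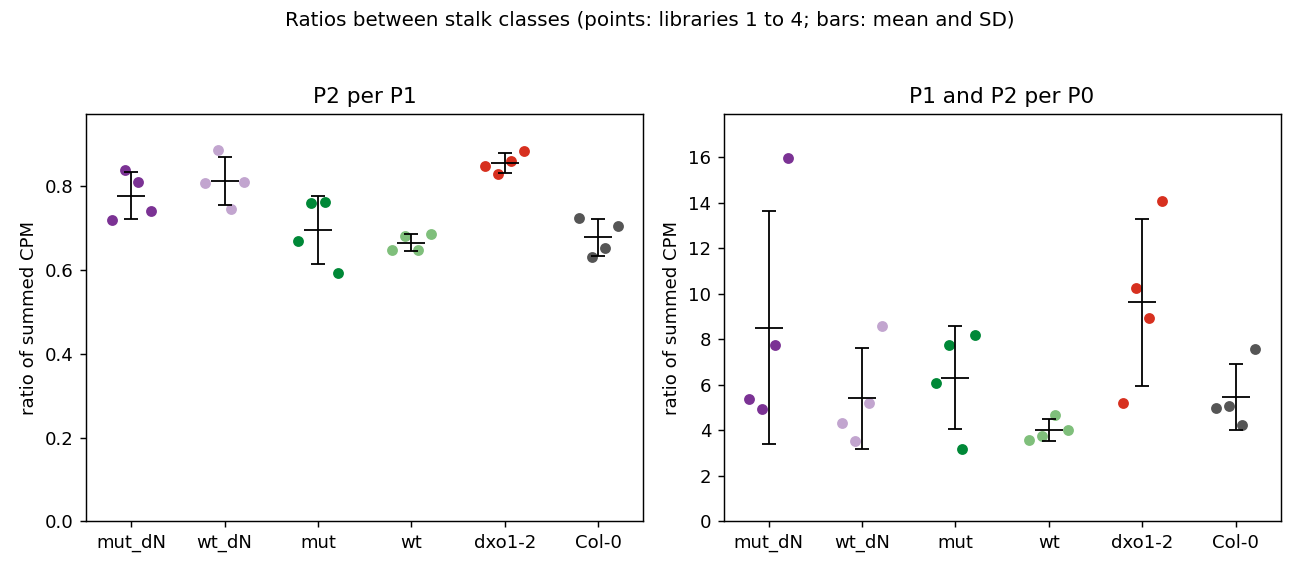
Ratio of summed CPM of P2 to P1 genes (left) and of P1 and P2 to P0 genes (right) in each library, with mean and SD (n = 4) per genotype. The left ratio is 0.8291 to 0.8851 in dxo1-2 and 0.631 to 0.724 in Col-0, and the right one spreads from 4.96 to 15.9 within mut_dN alone.

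Within P1, AT1G01100 made up 37.2% of the class counts in dxo1-2 and 41.5% in Col-0, and 35.6% in mut_dN, 36.0% in wt_dN, 44.8% in mut and 42.6% in wt. Its share was thus lower in the genotypes where the class was high. Within P2, AT2G27710 and AT2G27720 held 44.6% and 51.9% of the counts in dxo1-2 and 42.7% and 53.8% in Col-0, and AT3G44590 held 3.43% in dxo1-2 and 3.46% in Col-0. The mean share of AT3G44590 ran over the genotypes from 2.85% in mut to 3.63% in wt.

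In several genotypes AT3G09200 was low in the libraries where P1 and P2 were high. In 4 of the 6 genotypes the library with the least AT3G09200 had the highest sum of P1 and P2, the exceptions being dxo1-2 and mut. In mut_dN, replicate 4 had 133 CPM of AT3G09200 and 2997 CPM of P1 and P2, while replicate 2 had 303 CPM and 1726 CPM. In dxo1-2, replicate 4 had 127 CPM and 2357 CPM, while replicate 1 had 260.5 CPM and 1499 CPM. Over 24 libraries, after subtraction of group means, AT3G09200 correlated with the shared axis at r = -0.81, and the 8 other tested members at 0.46 to 0.94. These libraries share their groups and their normalization, and the axis was computed from the same levels, so the values are a description. AT3G09200 overlaps AT3G09210, a protein-coding gene on the same strand, by 100 bases at its 5' end and not at its 3' end. The shared bases thus lie at the 3' end of AT3G09210, where 3' reads of that gene are expected. How reads there were counted is not given in the sources used here. AT3G09210 had 21.9 to 57.7 CPM.

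**Figure D5:**
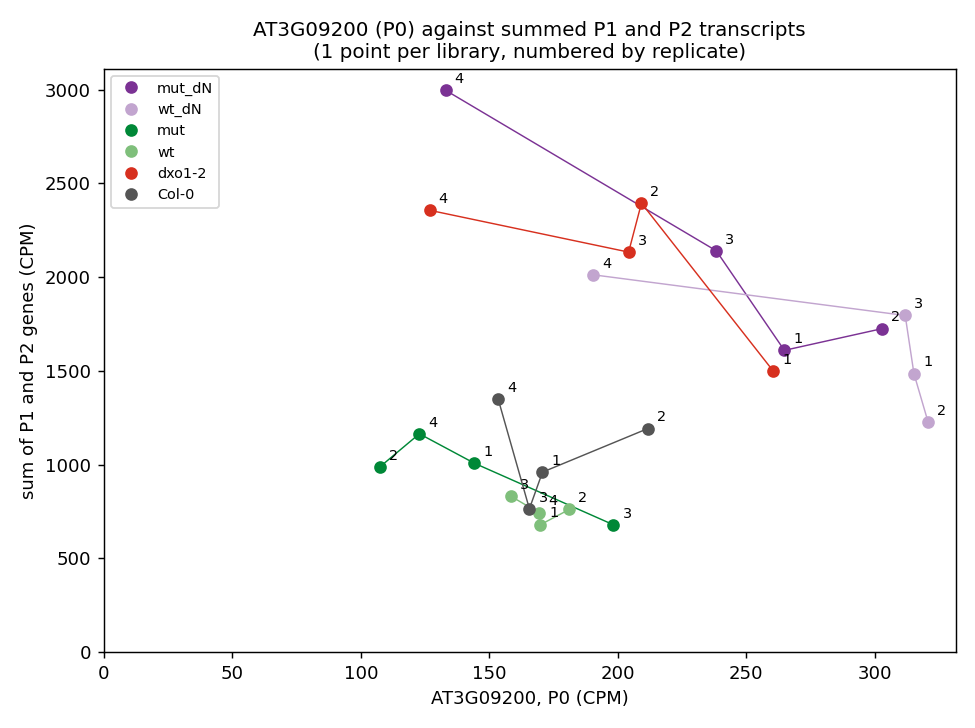
AT3G09200 in CPM (horizontal axis) against the summed CPM of P1 and P2 genes (vertical axis), 1 point per library, numbered by replicate and joined within genotypes. In every genotype the leftmost library lies above the rightmost one, and replicate 4 of mut_dN lies at 133 and 2997 CPM.

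The 5 genes whose pattern over the 24 libraries was most like the mean of the 9 members were all annotated as ribosomal proteins. They were AT3G23390 and AT3G60245, both zinc-binding ribosomal proteins (r = 0.99 each), AT3G05560 of the L22e family (r = 0.99), AT5G56670 of the S30 family (r = 0.98) and AT3G18740 of the L7Ae/L30e/S12e/Gadd45 family (r = 0.98). Members themselves correlated with the mean of the other members at 0.89 to 0.97, except AT2G40010 at 0.45 and AT3G09200 at 0.24. For AT3G09200 alone, in a search added after its values were seen, the most similar genes were AT4G37760, a squalene epoxidase (r = 0.94), and AT5G10360, ribosomal protein S6e (r = 0.93).

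Other parts of the stalk and its partners were read from lists. The 2 P3 genes, the plant-specific stalk proteins, rose in dxo1-2: AT4G25890 averaged 155 ± 33.9 CPM in dxo1-2 and 70.0 ± 21.2 CPM in Col-0, a log2 fold change of 1.15 (SE 0.25, adjusted p = 9.39e-04), and AT5G57290 averaged 287 ± 74.2 CPM in dxo1-2 and 134.5 ± 36.6 CPM in Col-0, at 1.09 (SE 0.28, adjusted p = 0.00562). Both fell in wt and mut over dxo1-2, and AT4G25890 also in wt_dN over dxo1-2, at -0.85 (SE 0.24, adjusted p = 0.0498), a call that was lost with median-of-ratios factors and with organelle genes left out. All 3 genes of uL11, the protein that forms the stalk base beside P0, rose in dxo1-2, with fold changes above those of the P0 genes. AT2G37190 had 161 ± 22.6 CPM in dxo1-2 and 40.2 ± 6.21 CPM in Col-0, at 2.00 (SE 0.16, adjusted p = 6.72e-10). AT5G60670 changed by 1.62 (SE 0.26, adjusted p = 3.60e-05) and AT3G53430 by 1.22 (SE 0.14, adjusted p = 3.13e-07). All 3 fell in wt and in mut over dxo1-2 and were higher in both truncated lines than in Col-0. AT1G25260, whose yeast counterpart MRT4 occupies the place of P0 during ribosome assembly, rose in dxo1-2 with 69.7 ± 12.1 CPM in dxo1-2 and 18.4 ± 5.34 CPM in Col-0, at 1.92 (SE 0.21, adjusted p = 1.67e-07), and fell in wt, at -2.01 (SE 0.20, adjusted p = 2.94e-08).

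The factors that the stalk binds were not called in dxo1-2. Of 6 eEF1A and eEF2 genes, the factors that deliver tRNA and move the ribosome, 5 were tested and 0 were called in dxo1-2 over Col-0, at an unadjusted p under 0.05 for 0 of them. The smallest p-values were those of AT1G07930, with 84.4 ± 40.5 CPM in dxo1-2 and 99.8 ± 18.6 CPM in Col-0, and AT1G07920, with 129.5 ± 52.5 CPM in dxo1-2 and 147 ± 20.3 CPM in Col-0, and among values above 0 was AT1G56070 at 0.14 (SE 0.31, adjusted p = 0.814). The median of the 5 was -0.16, and it was 0.03, with 1 gene called higher, with the length trend removed. In wt_dN over wt 4 of the 5 were called higher, with adjusted p-values of 0.0201 to 0.0445, while 17.4% of all tested genes were called higher. Of 8 genes of casein kinase 2, which phosphorylates the acidic tails in yeast and maize, 0 were called in dxo1-2 over Col-0, and the lowest adjusted p-values were 0.0796 for AT4G17640 and 0.0941 for AT3G50000, both at lower values in dxo1-2. For the GCN2 kinase and its partners, a pathway that the stalk activates in human cells, 0 of 3 genes were called: AT3G59410 (GCN2) was at 1.07 (SE 0.50, adjusted p = 0.128), AT1G64790 at -0.10 (SE 0.51, adjusted p = 0.926) and AT1G64550 at 0.15 (SE 0.61, adjusted p = 0.904).

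The stalks of the organelle ribosomes were read in the same way. Of 4 genes for plastid uL10c and bL12c, 3 were tested. AT5G13510 fell in dxo1-2, at -0.65 (SE 0.21, adjusted p = 0.0275), AT3G27830 was at -0.13 (SE 0.19, adjusted p = 0.704) and AT3G27850 at 0.34 (SE 0.15, adjusted p = 0.102), while AT3G27840 was at 0 counts in dxo1-2 and Col-0. Of 4 genes for the mitochondrial stalk, AT4G37660 rose in dxo1-2, at 1.39 (SE 0.28, adjusted p = 4.00e-04), and AT3G06040, AT1G70190 and AT3G12370 were at 0.48, 0.57 and 0.36 without passing the test. All 4 mitochondrial genes fell in wt over dxo1-2, or 3 of them with the length trend removed, and 2 fell in mut over dxo1-2. Of all tested genes, 18.5% were called lower in wt, or 16% with the length trend removed, and 15.1% in mut. In wt_dN over wt 3 of the 4 rose, and in mut_dN over mut 3 of the 4 rose, with medians of 0.77 and 0.78. The shares of all tested genes called higher there were 17.4% and 17.6%.

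The stalk members are next set beside the other cytosolic ribosomal proteins. Of 69 tested genes named as large-subunit proteins, 51 were called higher and 1 lower in dxo1-2 over Col-0, and of 27 named as small-subunit proteins 22 were called higher. Their median log2 fold changes were 1.30 and 1.13, beside 0.91 for the 9 members. With the length trend removed the medians were 0.93 and 0.84, beside 0.53. In wt over dxo1-2, 51 of 69 and 24 of 27 were called lower, with medians of -1.48 and -1.38, beside -1.40 for the members. The shares over all tested genes were 14.7% called higher in dxo1-2 over Col-0 and 18.5% called lower in wt over dxo1-2. No test was made of the difference between the members and the other ribosomal protein genes. Levels of 4 of 6 leaf mesophyll markers fell in dxo1-2, while 7.93% of all tested genes were called lower. Among them were AT5G66570 at -0.77 (SE 0.14, adjusted p = 1.79e-04) and AT5G38410 at -0.70 (SE 0.17, adjusted p = 0.00234). The marker AT1G29920 went the other way, at 0.15 in dxo1-2 over Col-0 (SE 0.15, adjusted p = 0.536). It was lower in wt than in dxo1-2, at -0.70 (SE 0.15, adjusted p = 8.97e-04). The 6 markers summed to 46700 to 54490 CPM in dxo1-2 and to 49860 to 54520 CPM in wt, where P1 and P2 genes were low. The part of these markers in the result was not tested. Dividing cell markers, 7 genes, summed to 9.99 to 17.0 CPM in dxo1-2 and 10.4 to 13.7 CPM in Col-0, and seed markers, 5 genes, to 44.1 to 155 CPM in dxo1-2 and 57.9 to 103 CPM in Col-0. Seed markers were much lower in wt, at 1.37 to 4.89 CPM, and in mut_dN, at 1.76 to 12.4 CPM, whereas P1 and P2 genes were low in wt and high in mut_dN.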

How the data were processed

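The data are 3' RNA-seq of 24 libraries. The deposited values are raw read counts per locus, with no normalization by the authors, 1 file per library. The submitters' processing notes name STAR 2.7.8a, DESeq2 and the TAIR10 genome, without roles. The counting tool, the annotation, the use of strand and any collapse of PCR copies are not given in the sources used here, so counts may include copies of one molecule.

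Samples were grouped by genotype from their labels. Counts were analysed with edgeR 4.0.16 in R 4.3.3: filtering by group, TMM factors and one quasi-likelihood fit of all 24 libraries, with Benjamini-Hochberg adjustment over 13592 genes and a threshold of 0.05. Standard errors come from the F statistic. The 95% intervals take their width from the normal distribution, so they are somewhat narrower than the F test would give. For AT4G00810 in mut_dN over wt_dN the interval was 0.02 to 0.80, although the unadjusted p of the quasi-likelihood test was 0.0508. Each of 14 comparisons was read for the members. Alternatives were median-of-ratios factors, no filter, DESeq2 1.42.0, fits of the compared groups only, a replicate block, the shared axis as a covariate, removal of the length trend and leaving out each library. The code was tested on simulated data. Depth was 1270033 to 3490594 counts per library, and 0 of 36 replicate pairs were identical.

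Members were matched by locus to RefSeq gene models of TAIR10.1. The members, lists and comparisons were chosen with earlier results of these data known. All members were named; from each list, up to 2 genes per direction with the smallest p in dxo1-2 over Col-0, or every gene of lists of 4 or fewer; and the 5 genes most correlated with the members' mean.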

Additional observations from a re-analysis of the deposited data

Results flagged for a closer look

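In 90 sets of 4 libraries, each holding 1 tested member, 1 sum over a class or over all members, or 1 ratio of classes in 1 genotype, 3 had a library far from the other 3, while chance marks about 1 set in 20. AT3G09200 had 190.4 CPM in wt_dN replicate 4, against 311.8 to 320.7 CPM in the other wt_dN libraries. The P0 sum, most of whose counts came from AT3G09200, had 234.3 CPM in the same library, against 343.7 to 346.2 CPM in the others. AT2G27720 had 149.2 CPM in wt replicate 1, against 173.1 to 177.5 CPM in the other wt libraries.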

How the results depend on the processing

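Counts of called members were the same within 1.5 times under most alternatives. With the shared axis as a covariate, 5 members were called in wt_dN over dxo1-2, beside 27.2% of all tested genes, and 5 in wt over Col-0, beside 16.5%. That fit called 8 in wt_dN over Col-0, 3 in mut over wt and 6 in mut_dN over wt_dN, beside 44.2%, 29.1% and 23.4%. In fits of only the compared groups, 5 were called in wt over Col-0 and 3 in wt_dN over Col-0, beside 11.4% and 31.2% of tested genes. The causes were not tested. No fold change of a member that was called reversed under any alternative. Leaving out 1 library at a time gave 3 to 6 called members in dxo1-2 over Col-0, 7 to 7 in wt over dxo1-2, 6 to 7 in mut over dxo1-2, 1 to 6 in wt_dN over Col-0, 6 to 8 in mut_dN over Col-0, 7 to 8 in wt_dN over wt, 7 to 9 in mut_dN over mut, and 0 to 0 in the comparisons with no call. In the comparisons with calls, 11.6% to 19.6% of all tested genes were called in the direction of the members. In those with no call, at most 18.8% of tested genes were called in either direction.

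Replicate numbers did not pair the libraries: same-numbered libraries correlated at -0.54 to 0.61, and in 0 comparisons were all pairs over 0.1. With a replicate block 6 members were called in dxo1-2 over Col-0, beside 15.7% of all tested genes called higher. In wt_dN over Col-0 the block gave 6 members, where it was 5 without the block, beside 17.5%. No other call among the 53 followed changed. Depth limits AT2G40010, with at most 23 counts, and AT3G28500, with at most 4.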
